A study of Mus musculus with 6 samples.

Results

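The S phase and DNA replication genes described here are 39 genes whose products license replication origins, open and copy DNA, supply its nucleotides, pack it into chromatin or start S phase. They were listed by name, and for each gene the probe set with exactly 1 gene symbol and the highest mean signal over the arrays was used. All 39 were measured, out of 19937 genes with such a probe set. They fall into 16 genes of origin licensing and the helicase, 11 of polymerases and fork factors, 4 of nucleotide supply, 4 of chromatin assembly and histone mRNA, and 4 regulators of the step from G1 into S phase.

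RNA came from the mouse B-cell line 230-238, infected with a plasmid for green fluorescent protein (GFP) alone or for GFP and FOG1, with 3 arrays per group. FOG1, encoded by Zfpm1, is a partner protein of GATA transcription factors. In both groups the cells grew for 3 days in RPMI1640 medium, were sorted as GFP-positive, and grew for 4 more days before RNA was taken. The control cells therefore also carry a plasmid and GFP, and both groups passed the sort. The labels call the samples biological replicates without saying that infections were separate, so each p-value reflects only how far these samples scatter, which may be technical. The promoter that drives FOG1 and the stage of the B-cell line are not stated in the sources used here.

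Replication starts when the origin recognition complex, CDC6 and CDT1 load the ring-shaped MCM2-7 helicase on DNA in G1. CDC45 and the GINS complex then turn the ring into an active helicase, and the polymerases follow, with the sliding clamp PCNA loaded by replication factor C. Most of these genes are transcribed in waves as cells enter S phase, under E2F factors, which cyclin E and its kinase help to release from the retinoblastoma family. In B-cell precursors, bursts of division alternate with rearrangement of immunoglobulin genes, so this programme is a main readout of whether such cells are cycling.

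Zfpm1 itself checks the labels. Zfpm1 read 9.41, 9.49 and 9.43 without FOG1 and 10.21, 10.16 and 10.17 with it, and every FOG1 array lay above every GFP array (limma adjusted p = 0.0038). All values are log2 signals as deposited, with array medians from 6.98 to 7.04. Of the 10 B-lineage markers, 9 were measured, and their mean was 11.80 to 11.85 on the GFP arrays and 11.69 to 11.76 on the FOG1 arrays. Those means did not overlap. Cd79a (log2 change -0.41), Ms4a1 (-0.34) and Cd79b (-0.16) were lower without overlap, or 33.3% of the 9, against 10.5% of all probe sets. Of the 9, 0 passed (smallest limma adjusted p = 0.088). The remaining B-lineage markers had changes of -0.02 to 0.04. Lists of T and NK cell, erythroid, megakaryocyte and myeloid markers averaged between 5.69 and 6.39 on every array, below all array medians. Of these 4 lists, the myeloid mean differed without overlap, at 6.36 to 6.39 with GFP alone and 6.07 to 6.18 with FOG1, and Itgam was the 1 of its 6 genes that passed (log2 change -1.11; limma adjusted p = 0.0075). The other 5 had changes of -0.20 to -0.02, so the difference in the mean came mostly from Itgam. The part of the B-lineage and myeloid differences in the replication values was not tested.

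No replication gene passed the threshold, but nearly all were slightly higher in the FOG1 cells. In limma, with Benjamini-Hochberg adjustment across the 34760 probe sets, 0 of the 39 had an adjusted p under 0.05 in either direction, and the smallest was 0.15, for Mcm3. The background was low, at 0.224% of all probe sets in either direction and 0.104% for those higher with FOG1. The log2 change, FOG1 minus GFP, was above 0 for 37 of the 39, against 46.2% of all probe sets. Its median over the genes was 0.10, against -0.01 over all probe sets, and it ran from -0.07 for E2f2 to 0.27 for Ccne2. For 20 genes (51.3%) the 3 FOG1 arrays all lay above the 3 GFP arrays, against 9.13% of all probe sets, and for 0 they all lay below.

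At an unadjusted p under 0.05, 9 genes (23.1%) were higher with FOG1 and 0 were lower, against 5.55% of all probe sets higher and 6.94% lower. Among the genes in the same range of signal, described below, 9.17% were higher and 4.8% lower. The count of 9 depended on the setting. It was 16 without FOG1 replicate 1, 5 without FOG1 replicate 2, 5 without FOG1 replicate 3 and 6 without GFP replicate 1 or without GFP replicate 3. It was also 19 after centring each array on its median and 20 with a variance trend. After quantile normalization, Cdt1 and Pold1 changed sign and 35 of 39 genes stayed above 0. The median member SE was 0.051, and the upper 95% bound was below 0.5 for all 39 genes, with the highest, 0.41, for Ccne2. More cells in S phase and more of these RNAs per cell cannot be told apart in bulk RNA.

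**Figure D1:**
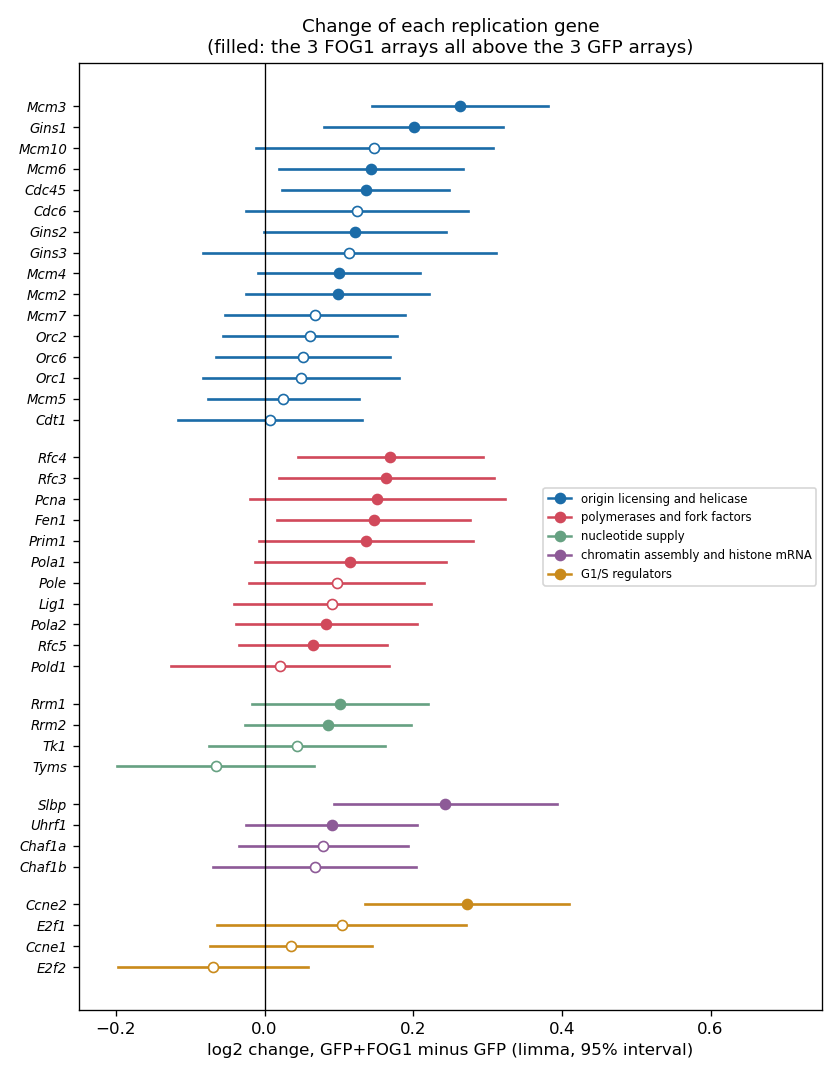
Log2 change (GFP+FOG1 minus GFP) of the 39 replication genes by class, with 95% limma intervals; filled points mark genes whose 3 FOG1 arrays all lay above the 3 GFP arrays. Points for 37 genes lie right of 0, 20 are filled, and 30 intervals include 0.

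Signal level has to be read beside these shares. The genes' mean signals lay between 7.95 and 12.77, and on the GFP arrays 38 of the 39 stood at or above the 75th percentile of all probe sets. Genes of like signal had a median change slightly above 0, whose size depended on the scaling. Over the 7709 genes whose mean level lay in the same range, the median change was 0.02 and 61.7% were above 0, and 19.6% had FOG1 arrays all above the GFP arrays. The replication genes stood at 94.9% and 51.3% by the same counts. For the genes of like signal, the median was 0.0076 with 53.6% above 0 after quantile normalization, and 0.049 with 72.2% after median centring. The median of the 39 under these scalings was 0.08 and 0.12. Without 1 array the like-signal median was 0.0151 (without GFP replicate 3) to 0.0345 (without GFP replicate 2). Median changes by level went from -0.04 in the dimmest decile of genes to 0.03 in the brightest, and the source of that trend was not tested. This range of levels was set after the data were seen. Within it the 39 genes sat towards the bright end. Counted from the dimmest, deciles 7, 8, 9 and 10 held 1, 4, 12 and 22 of them. The median changes of all genes in these deciles were 0.0072, 0.0226, 0.0285 and 0.03.

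**Figure D2:**
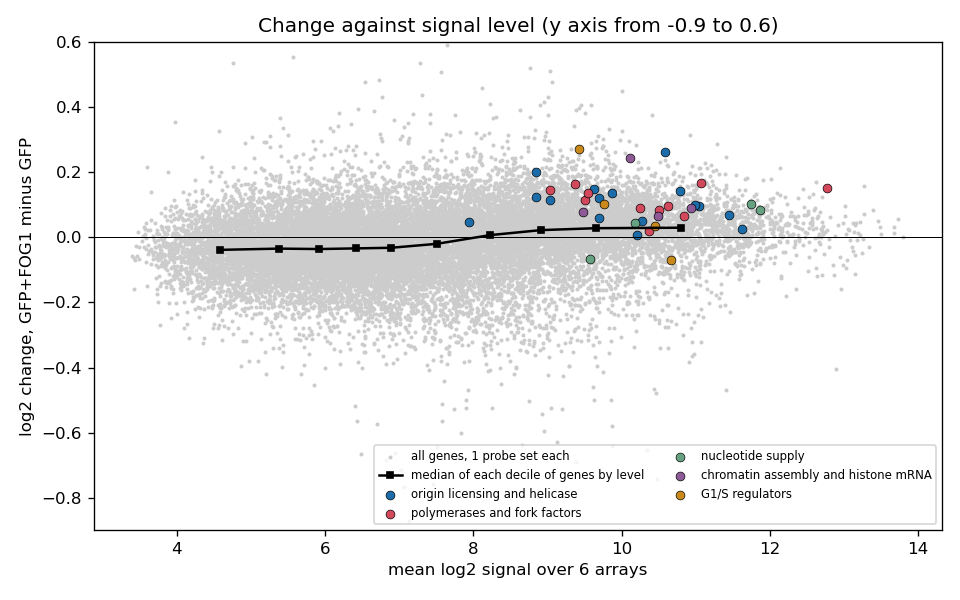
Log2 change (GFP+FOG1 minus GFP) against mean log2 signal over 6 arrays for all genes (grey, 1 probe set each), with the median of each decile of genes by level (black) and the 39 replication genes coloured by class; 21 genes lie outside the y axis. The coloured points sit at the bright end and mostly above the black line, which stays between -0.04 and 0.03.

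Because most of these genes are textbook E2F targets and were shifted to the same side, their promoters were searched for E2F letters. The sequences are RefSeq windows on GRCm38.p6, from 250 bases before to 50 after an annotated start. The table held 41 windows for 34 of the 39 genes, and none for Ccne2, Gins1, Gins2, Mcm4 and Pole. The E2F site was spelled as TTTCCCGC, TTTCGCGC, TTTGCCGC or TTTGGCGC, on both strands, with overlapping matches allowed. A match was found in 14 of 41 windows (34.1%), each of a different gene, against 2.26% of all 32851 windows and 4.63% of the 7966 windows of genes in the same range of signal. CCAAT, the letters bound by the factor NF-Y, was found in 25 windows (61%, against 37.4% of all and 37.7% at like signal). TTTGAA, the CHR element known from mitotic promoters, was found in 5 (12.2%, against 17.9% of all and 12.0% at like signal).

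The sequences below show the E2F letters, in capitals, in 4 promoters of genes described further on. For Mcm3 the stretch starts after the annotated start of the gene and holds matches that begin at bases 20 and 39 past it, 1 on each strand. For Mcm6, Rfc3 and Pola1 the whole part before the start is shown. In Mcm6 the pair of matches at -110 and -106 overlap on opposite strands, and a further match begins at -47. The match of Rfc3 before its start begins at -10 and that of Pola1, on the opposite strand, at -138.
Mcm3, chr1:20820266-20820295, minus strand: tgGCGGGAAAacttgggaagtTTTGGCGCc
Mcm6, chr1:128359706-128359955, minus strand: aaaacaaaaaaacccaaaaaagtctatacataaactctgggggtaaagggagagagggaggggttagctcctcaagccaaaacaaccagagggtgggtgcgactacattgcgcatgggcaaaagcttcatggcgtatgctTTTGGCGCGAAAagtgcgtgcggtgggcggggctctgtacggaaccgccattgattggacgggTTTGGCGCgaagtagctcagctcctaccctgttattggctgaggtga
Rfc3, chr5:151651209-151651458, minus strand: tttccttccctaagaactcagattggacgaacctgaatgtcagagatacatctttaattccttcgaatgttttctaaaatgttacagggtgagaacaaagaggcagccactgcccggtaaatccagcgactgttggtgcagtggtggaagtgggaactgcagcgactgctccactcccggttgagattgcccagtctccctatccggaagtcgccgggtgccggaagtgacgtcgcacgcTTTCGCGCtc
Pola1, chrX:93632156-93632405, minus strand: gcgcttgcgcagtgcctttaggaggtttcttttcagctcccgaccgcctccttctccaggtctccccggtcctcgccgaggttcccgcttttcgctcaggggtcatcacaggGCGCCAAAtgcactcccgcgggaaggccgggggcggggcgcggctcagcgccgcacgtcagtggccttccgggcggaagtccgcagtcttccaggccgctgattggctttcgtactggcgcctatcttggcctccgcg

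The genes with an E2F match did not stand out among the replication genes. The median log2 change was 0.09 for the 14 with a match and also 0.09 for the 20 with a window but no match. FOG1 arrays lay wholly above GFP arrays for 5 of the 14 and 11 of the 20. Over all probe sets this share was 9.13%, and over genes of like signal it was 19.6%. A match is a description of letters and was not tested as a binding site. Matches lay on both sides of the start, as close as the start base itself in Rfc3 and as far as -185 in Uhrf1, which encodes a factor that keeps DNA methylation through replication.

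**Figure D3:**
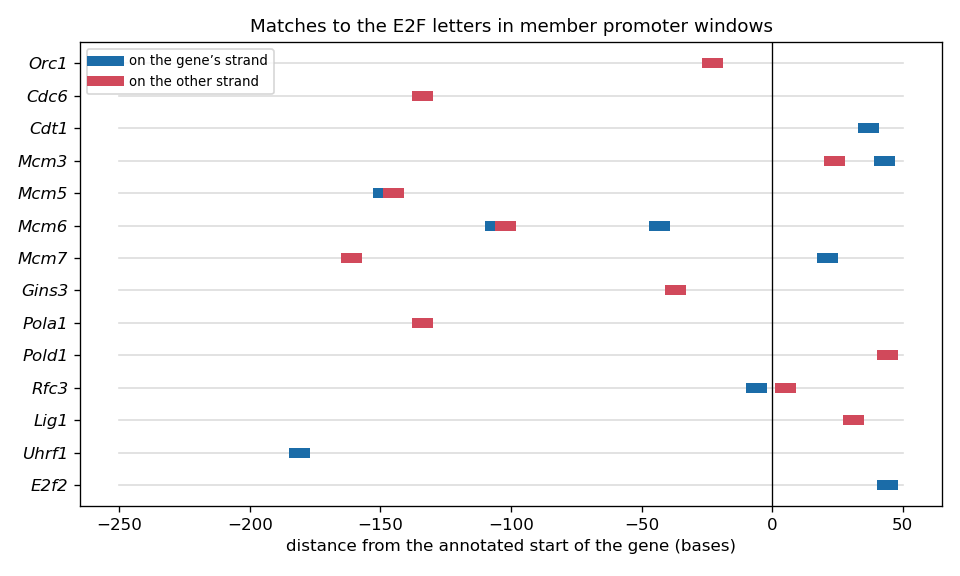
Position of each match to the E2F letters in bases from the annotated gene start, for the 14 replication genes with a match, by strand. Matches spread from -185 to 40, and Mcm3, Mcm5, Mcm6, Mcm7 and Rfc3 have more than 1.

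Origin licensing and helicase genes were all on the higher side as deposited, with Cdt1 below 0 after quantile normalization. Every one of the 16 had a log2 change above 0, with a median of 0.11 and a range of 0.007 to 0.26. FOG1 arrays lay wholly above GFP arrays for 7 (43.8%, against 9.13% of all probe sets and 19.6% of genes of like signal). An unadjusted p under 0.05 was found for 4 (25.0%, against 5.55% and 9.17%). Mcm3, a subunit of the helicase ring, read 10.42, 10.53 and 10.43 on the GFP arrays and 10.69, 10.74 and 10.74 on the FOG1 arrays. The groups did not overlap, and the gap between them exceeded the spread inside either. Its mean went from 10.46 ± 0.059 to 10.72 ± 0.027 (SD, n = 3 per group), a log2 change of 0.26 (SE 0.049, 95% interval 0.14 to 0.38; limma adjusted p = 0.15) or 20.0% more signal.

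The 6 subunits of the MCM2-7 ring are needed in equal number on DNA. All 6 changes were above 0, with a median of 0.10 and a range of 0.025 to 0.26. FOG1 arrays lay wholly above GFP arrays for 4, namely Mcm2 (0.10), Mcm3 (0.26), Mcm4 (0.10) and Mcm6 (0.14). Over all probe sets this share was 9.13%, and over genes of like signal it was 19.6%. Mcm6 read 10.69, 10.74 and 10.72 without FOG1 and 10.79, 10.88 and 10.92 with it (limma adjusted p = 0.35). Mcm7 was at 0.07, with groups that overlapped. Mcm5 was at 0.025, with a 95% interval of -0.08 to 0.13. Its arrays read 11.62, 11.64 and 11.58 against 11.66, 11.64 and 11.63 and were mixed. The differences between subunits were not tested.

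GINS and CDC45 complete the active helicase. Gins1 read 8.73, 8.72 and 8.76 on the GFP arrays and 8.87, 8.99 and 8.96 on the FOG1 arrays, without overlap. Its log2 change was 0.20 (SE 0.050, interval 0.08 to 0.32; limma adjusted p = 0.24), or 14.9% more signal. Gins2 was at 0.12, again without overlap. Gins3 was at 0.11, and there FOG1 replicate 1, at 8.93, lay inside the GFP range. Cdc45 read 9.85, 9.79 and 9.79 against 9.93, 9.91 and 9.997, a change of 0.14 (interval 0.024 to 0.25; limma adjusted p = 0.34). Mcm10, which helps the helicase to start, was at 0.15, but FOG1 replicate 1 (9.57) did not exceed GFP replicate 2 (9.58).

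Among the loaders of the ring most values were small. Orc1, Orc2 and Orc6, subunits of the origin recognition complex, had log2 changes of 0.049, 0.061 and 0.052, and 0 of the 3 had separate groups. Orc1 had the lowest mean signal of the 39 and read 7.92, 7.93 and 7.92 against 7.88, 8.04 and 7.995, so FOG1 replicate 1 lay below all GFP arrays. Cdc6 was at 0.12 (interval -0.02 to 0.27). Cdt1, the loading factor destroyed once S phase begins, was at 0.0070 (interval -0.12 to 0.13), and its arrays were mixed.

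**Figure D4:**
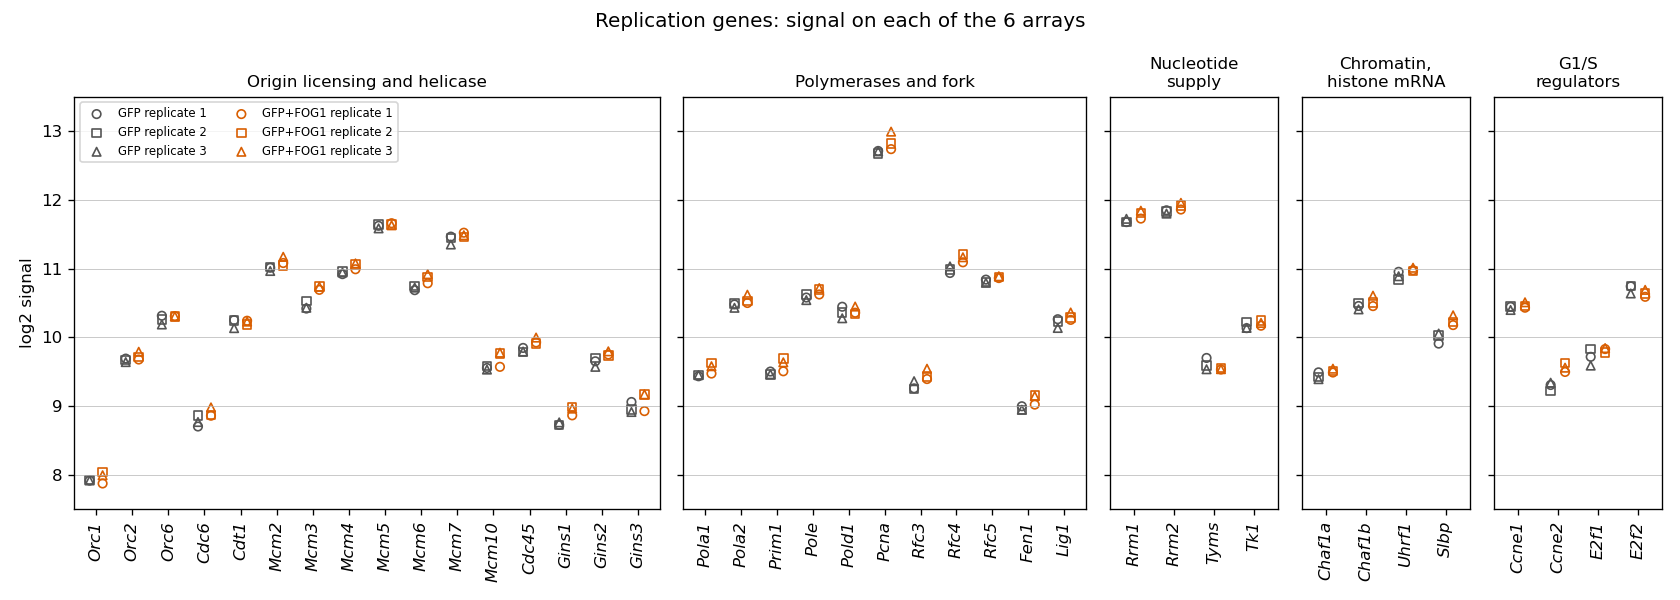
Log2 signal of the 39 replication genes on each of the 6 arrays, by class, with GFP in grey and GFP+FOG1 in orange and 1 symbol per replicate number. The shifts are small against the range of signals, and for genes such as Mcm3, Gins1, Slbp and Ccne2 the orange symbols sit wholly above the grey ones.

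Polymerase and fork genes were also on the higher side as deposited, with Pold1 below 0 after quantile normalization. All 11 had log2 changes above 0, with a median of 0.12 and a range of 0.020 to 0.17. For 8 of them (72.7%) the groups did not overlap, against 9.13% of all probe sets and 19.6% of genes of like signal, and 3 (27.3%) had an unadjusted p under 0.05, against 5.55% and 9.17%. Without FOG1 replicate 1 the median was 0.16. The clamp loader genes led: Rfc4 read 10.94, 10.99 and 11.03 on the GFP arrays and 11.09, 11.20 and 11.16 on the FOG1 arrays, a change of 0.17 (SE 0.052, interval 0.04 to 0.29; limma adjusted p = 0.31), or 12.4% more signal. Rfc3 read 9.26, 9.25 and 9.36 against 9.39, 9.43 and 9.54, a change of 0.16 (limma adjusted p = 0.36). In neither gene did the groups overlap. Rfc5 was at 0.065, with separate groups.

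Fen1, the nuclease that trims Okazaki fragments, read 8.998, 8.94 and 8.95 against 9.02, 9.16 and 9.15, a change of 0.15 (interval 0.017 to 0.28; limma adjusted p = 0.36). Its groups were apart, but FOG1 replicate 1 lay close above GFP replicate 1. Lig1, the ligase that then seals the fragments, was at 0.09 and overlapped. Pola1, Pola2 and Prim1, of the polymerase alpha and primase complex that lays down primers, were at 0.12, 0.08 and 0.14, and all 3 had separate groups. Groups were separate in that direction for 9.13% of all probe sets and 19.6% of genes of like signal. Pole, the leading-strand polymerase, was at 0.10. Pold1, the catalytic subunit of polymerase delta, was at 0.020 (interval -0.13 to 0.17), with mixed arrays.

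Pcna, the sliding clamp, had the highest mean signal of the 39. It read 12.71, 12.68 and 12.70 against 12.74, 12.82 and 12.99, a change of 0.15 (interval -0.02 to 0.32; limma adjusted p = 0.44). FOG1 replicate 3 stood well above the other FOG1 arrays. A further Pcna probe set had a change of 0.06 and overlapping groups. The RefSeq gene table also holds the pseudogenes Pcna-ps1 and Pcna-ps2, and the signal of such copies cannot be told apart from that of Pcna here, so its value is uncertain.

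Nucleotide supply genes were divided. The 4 had a median log2 change of 0.06, with 3 above 0 and 1 below, and none had an unadjusted p under 0.05. Rrm1 and Rrm2 encode the subunits of ribonucleotide reductase, which makes deoxyribonucleotides. Rrm1 read 11.68, 11.68 and 11.72 against 11.73, 11.81 and 11.84, a change of 0.10 (interval -0.02 to 0.22; limma adjusted p = 0.45). Rrm2 read 11.85, 11.83 and 11.80 against 11.86, 11.92 and 11.96, a change of 0.09 (interval -0.03 to 0.20; limma adjusted p = 0.49). For both, the groups were separate, by a margin smaller than the SD of either group.

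Tyms, which makes thymidylate, went the other way without passing. It read 9.70, 9.59 and 9.54 against 9.53, 9.56 and 9.54, a change of -0.07 (interval -0.20 to 0.07; limma adjusted p = 0.65). The GFP arrays spread more widely than the FOG1 arrays, and the groups overlapped. Tk1, the salvage kinase for thymidine, was at 0.04, and its other probe set was at -0.03, so its direction was not settled.

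Chromatin assembly and histone mRNA genes were led by Slbp, the stem-loop binding protein that histone mRNAs need for processing and translation. Slbp read 9.91, 10.03 and 10.06 on the GFP arrays and 10.18, 10.22 and 10.32 on the FOG1 arrays, without overlap. The change was 0.24 (SE 0.062, interval 0.09 to 0.39; limma adjusted p = 0.24), or 18.4% more signal, and its other probe set was at 0.17, also without overlap. Uhrf1 read 10.95, 10.84 and 10.89 against 10.98, 10.97 and 11.01, a change of 0.09 (limma adjusted p = 0.48) with groups just apart. Chaf1a and Chaf1b, subunits of the chaperone CAF-1 that places histones on new DNA, were at 0.08 and 0.07, and both overlapped. Chaf1a read 9.49, 9.42 and 9.39 against 9.49, 9.51 and 9.54 (limma adjusted p = 0.53). All 4 changes of the class were above 0, with a median of 0.08.

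Regulators of S phase entry were mixed. Ccne2, which encodes a cyclin E that drives CDK2, had the largest change of the 39. It read 9.31, 9.22 and 9.34 against 9.497, 9.63 and 9.56, so the groups were well apart. The change was 0.27 (SE 0.057, interval 0.14 to 0.41; limma adjusted p = 0.19), or 20.8% more signal. Its paralog Ccne1 was at 0.035 (interval -0.07 to 0.14), with mixed arrays. The activator E2f1 read 9.72, 9.83 and 9.59 against 9.83, 9.78 and 9.84, a change of 0.10 (interval -0.06 to 0.27; limma adjusted p = 0.57), and its GFP arrays spread widely. E2f2, also an activator, read 10.74, 10.74 and 10.64 against 10.59, 10.64 and 10.69, a change of -0.07 (interval -0.20 to 0.06; limma adjusted p = 0.61). The median of these 4 was 0.07, and 0.03 without GFP replicate 3. Differences between the classes were not tested.

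The shift was not equal on the FOG1 arrays. The mean of the 39 genes, relative to the GFP arrays' mean, was 0.012, 0.012 and -0.024 on the GFP arrays and 0.053, 0.11 and 0.14 on FOG1 replicates 1, 2 and 3. FOG1 replicate 1 was thus nearest to the controls and FOG1 replicate 3 furthest. Within the FOG1 group, replicate 1 was the lowest array for 29 of the 39 genes (74.4%, against 36.5% of all probe sets), and replicate 3 was the highest for 25 (64.1%, against 40.6%). On genes within the same range of signal the corresponding FOG1 means were 0.012, 0.013 and 0.016. These means were close to each other, but a mean can hide changes in opposite directions. The first principal component, the main axis of difference between the arrays, had the same order as the replication genes. It was 1.15, 16.985 and 24.28 on FOG1 replicates 1, 2 and 3, and -16.06 to -11.38 on the GFP arrays. Whether the order in the replication genes is separate from this axis was not tested.

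Markers of stromal cells ran in the opposite order on the FOG1 arrays. The mean of all 3 listed markers, Col1a1, Col1a2 and Pdgfrb, was 9.02 to 9.22 on the GFP arrays and 9.47, 9.14 and 8.43 on FOG1 replicates 1, 2 and 3. On the GFP arrays the 3 stood at percentiles 72.6 to 86.0 of all probe sets, and Pdgfrb, a receptor of fibroblasts and pericytes, read 8.97, 8.59 and 7.595 on FOG1 replicates 1, 2 and 3. The part of these markers in the replication values was not tested. Without FOG1 replicate 1 the median change of the 39 was 0.11, and without FOG1 replicate 3 it was 0.08, with 36 of 39 above 0 in either case.

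**Figure D5:**
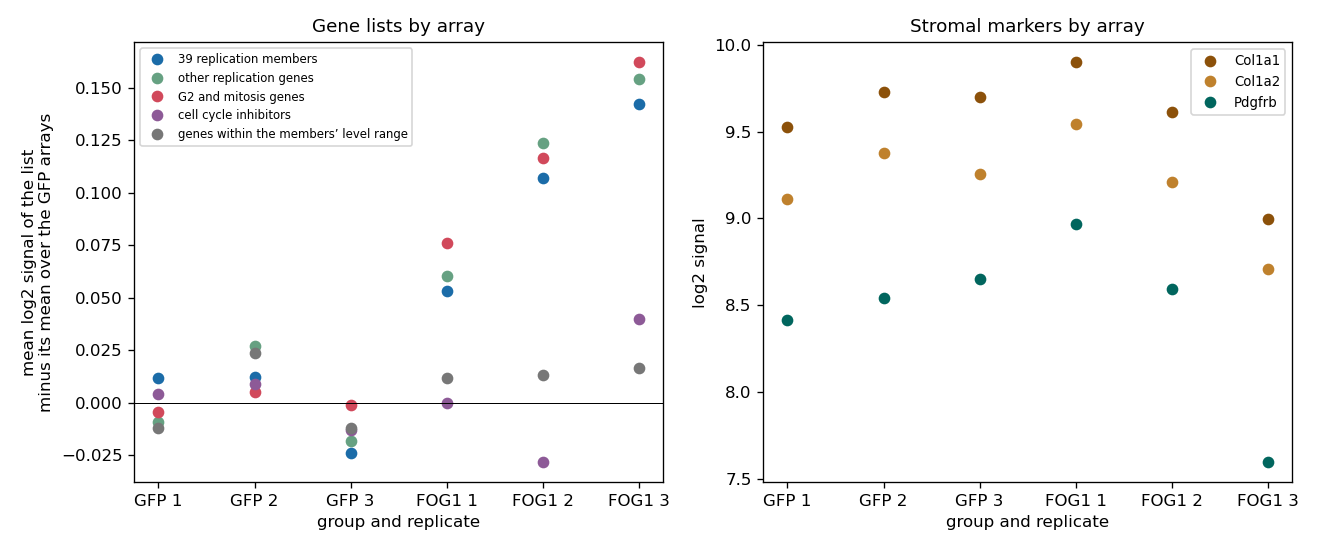
Left, mean log2 signal of each gene list minus its mean over the GFP arrays, for every array; right, log2 signal of 3 stromal markers on the same arrays. The replication and mitosis lists are lowest among FOG1 arrays on replicate 1 and highest on replicate 3, where the stromal markers are lowest.

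Replication genes outside the 39 were placed much the same way. Of 58 further genes of the pathway, 57 were measured, and 55 had a log2 change above 0, with a median of 0.11. None passed (limma, 0 of 57 adjusted). At an unadjusted p under 0.05, 16 were higher (28.1%, against 5.55% of all probe sets and 9.17% of genes in the signal range of the 39). By the same measure 1 was lower (1.75%, against 6.94% and 4.8%). Exo1, a nuclease of mismatch repair and of stalled forks, read 8.64, 8.77 and 8.66 against 9.02, 9.14 and 9.13, a change of 0.41 (interval 0.26 to 0.55; limma adjusted p = 0.091), or 32.6% more signal. It passed when only probe sets with 1 symbol were tested (limma adjusted p = 0.037) and without dim probe sets (0.043), and its adjusted p was 0.053 to 0.31 in the other alternatives. Next by unadjusted p, not by size, were the polymerase accessory subunit genes Pole2 at 0.22 and Pold2 at 0.17 and Rbl1, which encodes the E2F-binding pocket protein p107, at 0.19. Their limma adjusted p were 0.20, 0.22 and 0.22, and in all 3 the groups did not overlap.

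Samhd1, which breaks down deoxyribonucleotides and so opposes nucleotide supply, was 1 of 2 genes of this list below 0. It read 11.06, 11.02 and 10.96 on the GFP arrays and 10.86, 10.77 and 10.71 on the FOG1 arrays. Every FOG1 array lay below every GFP array. The change was -0.23 (SE 0.056, interval -0.37 to -0.10; limma adjusted p = 0.22), or 14.9% less signal. Tfdp1, the dimer partner of E2F factors, was the other, at -0.01 with mixed arrays.

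Other cell cycle lists on the same arrays give the setting. Of 29 measured genes of G2 and mitosis, 28 were above 0, with a median of 0.13, and 18 (62.1%, against 5.55% of all probe sets) were higher at an unadjusted p under 0.05, though none passed adjustment (limma, 0 of 29). Bub1b of the spindle checkpoint was at 0.21, Prc1, a spindle midzone protein, at 0.24 and the kinetochore motor gene Cenpe at 0.22, each with separate groups. Of 10 listed cell cycle inhibitors, all but Cdkn1a were measured. These 9 had a median of -0.03, with 4 above 0 and 5 below, and 0 had an unadjusted p under 0.05 (limma, 0 of 9 adjusted). Rbl2, which encodes the pocket protein p130, was at 0.13, and Btg2, an antiproliferative gene, at -0.14. The list medians depend on how genes were assigned. The related genes Rb1 (0.08) and Rbl1 (0.19) were counted with the other replication genes, not with the inhibitors. Whether the lists differ from each other was not tested, since they share the same arrays.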

How the data were processed

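The authors deposited log2 signals for 34760 probe sets on 6 Affymetrix mouse gene arrays, made from 100 ng of total RNA each per the labels. Per the submitters' processing notes affy was used, with no version. How background, normalization and probe summary were handled is not given in the sources used here. Forcing arrays to a common distribution would mask any change common to most genes. Probe sets were named through the platform annotation: 21640 had 1 symbol, 1321 several and 11799 none here. Groups came from the sample titles. FOG1 and GFP arrays were set against each other in limma 3.58.1 under R 4.3.3 (lmFit, eBayes, two-sided, Benjamini-Hochberg over all probe sets, threshold 0.05, no filter), and the fit was tested on simulated data. Intervals are 95% moderated intervals. Lists are described by counts and medians. The members and lists were chosen with earlier results of these data known. Values on every array are given for the 3 genes of each class with the smallest unadjusted p, for genes with a negative change and for those with the highest and lowest signal, and the other list genes named are those with the smallest unadjusted p, taken in each direction for replication genes, where 2 were negative. Mcm5, Mcm6 and Pdgfrb were added after their values were seen. Alternatives were quantile normalization, median centring, leaving out dim probe sets, testing 1-symbol probe sets only, a replicate block, array weights, a robust variance trend, leave-one-out fits and averaging a gene's probe sets. The number of arrays limits the precision. Figures used matplotlib 3.10.9.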

Additional observations from a re-analysis of the deposited data

How the results depend on the processing

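In every alternative with a test, which averaging a gene's probe sets did not have, 0 of the 39 replication genes passed the threshold, with the smallest adjusted p between 0.066 (variance trend) and 0.42 (without FOG1 replicate 2). Their median log2 change was 0.08 to 0.12 and the number above 0 was 35 to 37. The count of members at an unadjusted p under 0.05 (9) was 19 after median centring, 20 with a variance trend and 5 to 16 without 1 array. For the other replication genes this count (16) was 30, 26 and 7 to 22, and 1 of them, Exo1, passed without dim probe sets and with 1-symbol probe sets only. Among all probe sets, 78 passed, and 17 to 38 did without 1 array, where fewer samples are 1 reason. The class medians moved without 1 array for polymerases and fork factors (0.08 to 0.16) and for G1/S regulators (0.031 to 0.10). Cdt1 was at -0.022 and Pold1 at -0.0068 after quantile normalization, and Tfdp1 at 0.0145 after median centring. Without 1 array Cdt1 ranged from -0.0315 to 0.027, Pold1 from -0.021 to 0.063 and Tfdp1 from -0.043 to 0.012. The cause of these moves was not tested. Deviations of arrays sharing a replicate number correlated at -0.07, 0.0084 and -0.04, and 0 of 6 arrays matched its own number best, so the numbers were not taken as pairs. With the replicate block 9 probe sets passed, 0 of them members, and the adjusted p of Zfpm1 was 0.097. Signals carry no detection call, so background can understate a change.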
